A study of Mus musculus with 4 samples.

Results

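The sarcomere and muscle enzyme genes are 44 genes of the contractile apparatus and of energy supply in differentiated muscle. They were chosen by name, with earlier results of these data known. A gene was found on the array by its symbol in the platform annotation, and its probe set of highest mean signal over the 4 arrays stood for it. Of the 44 genes 40 were present on the array's value table, among 12393 named genes. Mybpc1, Mybpc2, Unc45b and Neb were not analysed here. Another 6, Myh2, Myh4, Myh6, Myh8, Myl2 and Ckmt2, lay in the dimmest 25% of genes by mean signal, under a log2 signal of 2.18, and were not tested. That left 34 tested genes: 11 of the thick filament, 11 of the thin filament, 10 of the Z-disc and 2 of the enzyme class.

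The cells were C2C12, an established mouse myoblast line grown in medium with fetal calf serum. They were brought into G0, the reversible arrest outside the cell cycle, in a suspension of semi-solid methyl cellulose for 48 hours. The 2 control arrays are labelled as G0 cells with the treatment "control". The 2 Wnt3A arrays are labelled as G0 cells with purified Wnt3A, a secreted ligand of the β-catenin pathway, given at 50 ng/ml. All arrays therefore share the line, the suspension and the time, and the result describes 1 cell line. The series title names β-catenin networks of quiescent myogenic cells as the subject, and Wnt3A against control is its only contrast.

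The sarcomere is the repeating contractile unit of striated muscle. Thick filaments of myosin pull on thin filaments of actin, troponin and tropomyosin, and Z-discs anchor the thin filaments at both ends of the unit. Dividing myoblasts make little of these proteins; their genes are switched on together when myoblasts leave the cell cycle for good and differentiate, under the transcription factors MyoD, myogenin and MEF2. Reversibly arrested myoblasts are held back from this programme, and canonical Wnt signalling is known to act at several steps of it.

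E-boxes, the sites bound by MyoD and myogenin, are a well known sequence feature of these genes. The promoters below show 1 gene of each class that was at least 2-fold lower with Wnt3A, so that the place of such letters can be read. They are the 250 bases before the start of transcription in RefSeq, assembly GRCm38.p6, written along the gene's strand, and capitals mark each E-box match (CANNTG, which reads the same on both strands). In each class the gene of highest mean signal with an entry in the table was taken; Actn3 had none. Mylpf lies at chr7:127211358-127211607 on the plus strand, Tnnc2 at chr2:164779735-164779984 on the minus strand, Smpx at chrX:157698723-157698972 on the plus strand and Ckm at chr7:19410844-19411093 on the plus strand.
Mylpf: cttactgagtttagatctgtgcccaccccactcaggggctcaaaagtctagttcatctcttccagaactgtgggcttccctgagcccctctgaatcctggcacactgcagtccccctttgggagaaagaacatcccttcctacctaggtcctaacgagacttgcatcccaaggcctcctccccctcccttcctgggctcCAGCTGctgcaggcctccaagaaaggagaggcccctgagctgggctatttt
Tnnc2: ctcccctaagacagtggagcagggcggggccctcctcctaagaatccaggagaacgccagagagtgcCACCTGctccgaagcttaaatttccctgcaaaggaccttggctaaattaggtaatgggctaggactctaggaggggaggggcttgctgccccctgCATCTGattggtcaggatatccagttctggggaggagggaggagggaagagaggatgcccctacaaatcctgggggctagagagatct
Smpx: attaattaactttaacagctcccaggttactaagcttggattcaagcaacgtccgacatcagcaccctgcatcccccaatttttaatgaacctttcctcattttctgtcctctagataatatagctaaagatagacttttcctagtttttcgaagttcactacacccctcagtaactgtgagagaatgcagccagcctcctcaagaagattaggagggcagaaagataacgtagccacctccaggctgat
Ckm: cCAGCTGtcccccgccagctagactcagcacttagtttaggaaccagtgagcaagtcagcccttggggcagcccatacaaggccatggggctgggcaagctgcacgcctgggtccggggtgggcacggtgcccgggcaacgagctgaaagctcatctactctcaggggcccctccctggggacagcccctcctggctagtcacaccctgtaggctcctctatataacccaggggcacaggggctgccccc

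Mylpf had 1 match, between 51 and 46 bases before the start. Tnnc2 had 2, at 183 to 178 and at 88 to 83 bases, and Ckm had 1, at 249 to 244 bases. Smpx had no match within this window. Of the 44 genes 36 had a promoter entry, and an E-box match was found in 29 of them (80.6%), against 66.0% of all 27025 genes in the table. A match to the MEF2 consensus was found in 5 of 36 (13.9%), against 3.0% of all. The CArG box, the site of serum response factor, was matched in 6 of 36 (16.7%), against 1.4% of all: Acta1, Actc1, Ldb3, Myh4, Myl3 and Myom1. The MCAT element CATTCC, the site of TEAD factors, was matched in 12 (33.3%) against 12.6%, and the LEF/TCF core CTTTGA in 6 (16.7%) against 14.0%. The 36 include genes that were dim or not on the value table. Over the 27 tested genes with an entry the shares were 77.8% (E-box), 11.1% (MEF2), 18.5% (CArG), 33.3% (MCAT) and 7.4% (LEF/TCF). Both strands were searched, each gene had 1 window, and a match is a run of letters and not a measured site.

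Before the values of the genes, 2 arrays need description. Control replicate 2 gave signals of 6.82 to 7.57 on the 3 array control probe sets for 18S ribosomal RNA, where Wnt3A replicate 2 gave 9.04 to 9.98 and the other two arrays 10.00 to 11.00. Median signals of the 4 arrays lay between 4.15 and 4.22. Wnt3A replicate 2 had the lowest correlations with other arrays over all tested genes (r = 0.936 to 0.957). Of 7 myoblast markers 6 were above the limit for dim genes, Pax7 being under it. Of these 6, 4 were lower with Wnt3A, against 53.0% of all tested genes. The list had a summed log2 signal of 10.19 and 10.70 on the control arrays and 10.77 and 10.47 on the Wnt3A arrays. That sum was carried by Des (8.73 and 8.92 against 9.08 and 8.10) and Chrna1 (8.75 and 9.70 against 9.60 and 9.73). Des is also a tested Z-disc gene and Chrna1 also belongs to the list of other muscle genes below, so the sum is not separate from them. The 5 fibroblast markers summed to 9.74 and 9.81 on the control arrays and 9.06 and 8.58 on the Wnt3A arrays. Of the 5, 4 were lower with Wnt3A, Thy1 being under the limit. Of the 4 tested, 3 were lower, against 53.0% of all tested genes. Col1a1 was higher, at 4.59 and 6.39 on the control arrays and 5.64 and 6.41 on the Wnt3A arrays. The brightest was Pdgfra, at 9.18 and 9.25 against 8.69 and 7.29. The 3 adipocyte markers on the table were all lower with Wnt3A, with sums of 4.41 and 4.20 against 3.19 and 3.53. Fabp4, the only tested one, differed by -1.32 (SE 0.22) with groups apart; Adipoq and Lep were under the limit. The 6 endothelial and leukocyte markers summed to 4.97 and 4.96 against 5.02 and 5.86, with Ptprc, Pecam1 and Cdh5 under the limit. Of the 3 tested, Csf1r differed by 1.03 (SE 0.57), Cd68 by 0.28 (SE 0.16) and Kdr by -0.26 (SE 0.19), each with groups apart. Among all tested genes 14.7% were apart on the higher and 19.8% on the lower side. Csf1r read 3.26 and 3.40 against 3.53 and 5.19, so its difference lay mainly in Wnt3A replicate 2. Cd68 and Kdr were near the limit for dim genes. The 7 markers of cycling cells on the table summed to 9.60 and 9.81 in control and to 9.66 and 10.57 with Wnt3A, a sum carried by Pcna (9.17 and 9.11 against 9.27 and 10.30), while 5 of the 7 were lower with Wnt3A and the median difference was -0.11. The part of the ribosomal signal and of these markers in the results below was not tested.

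With Wnt3A the contractile genes were lower on average, and the amount depended on which control array they were set against. The difference, Wnt3A minus control on the log2 scale, was below 0 for 32 of the 34 tested genes and above 0 for Myh1 and Tmod1; among all 9295 tested genes 53.0% were below 0. Over all 40 genes on the table it was below 0 for 34. The median difference was -0.90 over the tested genes and -0.80 over all 40, against -0.02 over all tested genes. In 23 of the 34 both Wnt3A arrays lay below both control arrays, where 19.8% of all tested genes did so, and in 0 of them both lay above, where 14.7% did. In 14 of the 34 the groups were apart in this way and at least 2-fold different, where 2.09% of all tested genes were.

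No single gene passed the test. In limma with Benjamini-Hochberg adjustment 0 of the 34 and 0 of all 9295 tested genes (0.00%) had an adjusted p under 0.05. The adjusted p of the 34 ran from 0.757 for Ldb3 to 0.976 for Myoz1. Without adjustment, 528 genes in all had a p under 0.05, and 299 of these were lower with Wnt3A (3.22%). Among the 34 there were 12, all lower: Myl1, Myl4, Mylpf, Actc1, Tnnc2, Actn2, Actn3, Ldb3, Myoz2, Tcap, Smpx and Ckm. The labels call the arrays biological replicates without saying whether cultures were started apart, so p-values measure the spread between these arrays. In these bulk samples fewer differentiating cells and less RNA per cell cannot be told apart.

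**Figure D1:**
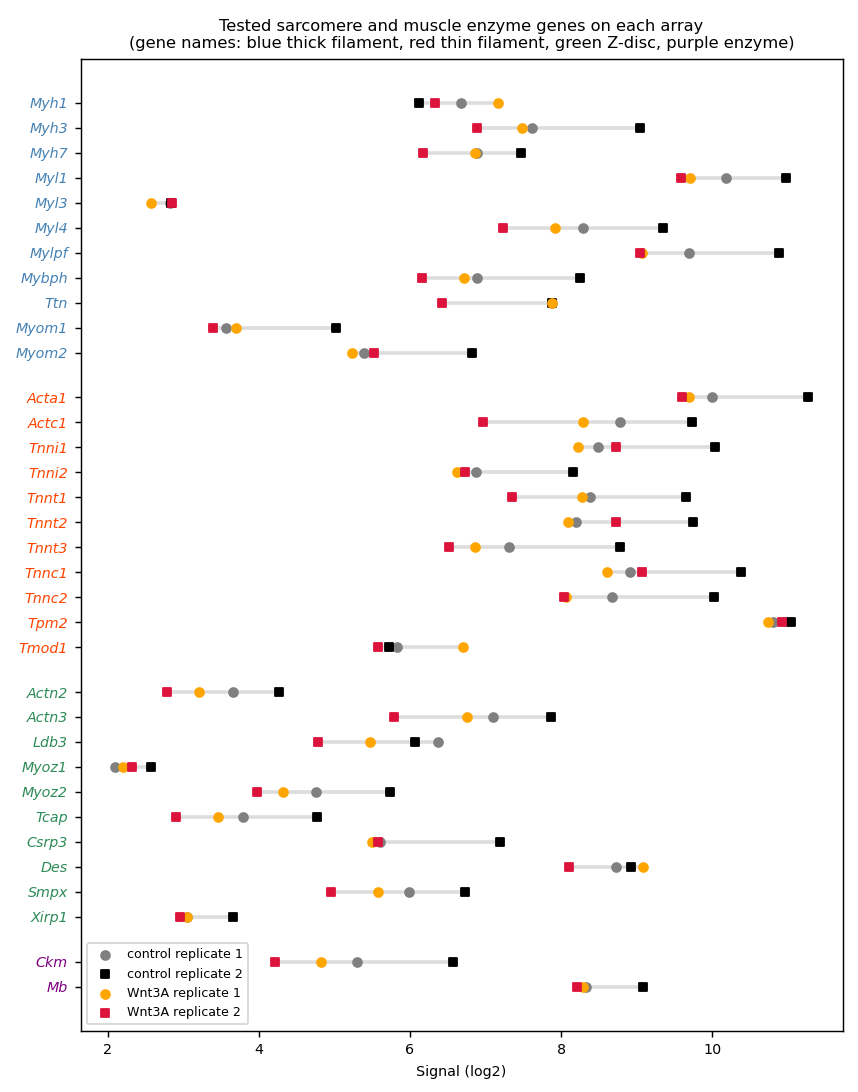
Signal (log2, horizontal axis) of the 34 tested genes on each of the 4 arrays, grouped by class; circles are replicate 1, squares replicate 2, grey and black control, orange and red Wnt3A. For most genes control replicate 2 (black squares) stands to the right of the other 3 arrays. It was the highest array for 29 of the 34, and for 2779 of all 9295 tested genes.

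In the thick filament class, 10 of 11 tested genes were lower with Wnt3A, with a median difference of -0.75, and in 7 the groups did not overlap. Beside the counts of this and each later class stand the shares over all tested genes. Of these 53.0% were lower, and 19.8% had both Wnt3A arrays below both control arrays. Myosin heavy chains are the motors of the filament. Signals are given as replicate 1 and then replicate 2 of each group. Myh3, the embryonic heavy chain, read 7.61 and 9.04 on the control arrays and 7.49 and 6.89 on the Wnt3A arrays. Its difference was -1.14 (SE 0.54, 95% confidence interval -2.55 to 0.27, n = 2 arrays per group). Myh7, the slow and cardiac heavy chain, read 6.89 and 7.47 on the control arrays and 6.87 and 6.17 on the Wnt3A arrays, differing by -0.66 (SE 0.35). In both genes control replicate 1 and Wnt3A replicate 1 were close, and the distance came from the arrays numbered 2.

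Myh1, a fast heavy chain of adult muscle, was one of the 2 tested genes above 0. It read 6.68 and 6.13 on the control arrays and 7.17 and 6.33 on the Wnt3A arrays, so the groups overlapped, and its difference was 0.35 (SE 0.38), which turned to -0.0665 without Wnt3A replicate 1. Another probe set of Myh1 gave 0.23, while the third was under the limit for dim genes. Heavy chain genes are close copies of one another, and Myh3, Myh2, Myh1, Myh4 and Myh8 lie side by side in the RefSeq annotation with no protein-coding gene between them. Signal of one heavy chain on the probes of another cannot be told apart here. The dim heavy chains Myh2, Myh4, Myh6 and Myh8 had signals from 1.15 to 2.68 on the 4 arrays. Myh6, the neighbour of Myh7, read 1.32 and 1.15 on the control arrays and 1.22 and 1.24 on the Wnt3A arrays.

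Myosin light chains stiffen and regulate the neck of the motor. Mylpf, the fast regulatory light chain, read 9.69 and 10.88 on the control arrays and 9.08 and 9.04 on the Wnt3A arrays. The Wnt3A arrays were alike and both control arrays lay above them, a difference of -1.23 (SE 0.42, adjusted p = 0.842 in limma), or 2.34-fold lower. Myl1, the fast essential light chain, read 10.19 and 10.97 against 9.70 and 9.58, a difference of -0.94 (SE 0.31). Myl4, the embryonic and atrial light chain, read 8.28 and 9.35 against 7.91 and 7.23, a difference of -1.25 (SE 0.45); its other probe set, at a mean signal of 2.33, gave 0.06. All 3 of these had groups apart. Myl3, a slow light chain, read 2.83 and 2.84 against 2.58 and 2.85, near the limit for dim genes, with a difference of -0.12 (SE 0.17) that was above 0 after scaling the arrays to hybridization controls. Myl2, the slow regulatory light chain, was dim, at 1.61 to 1.71 on all arrays.

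The remaining thick filament genes hold the myosin lattice together. Mybph, which encodes a myosin-binding protein, read 6.88 and 8.25 on the control arrays and 6.72 and 6.16 on the Wnt3A arrays, differing by -1.13 (SE 0.52). Ttn, the gene of the giant spring protein titin, read 7.88 on both control arrays, and 7.87 and 6.42 with Wnt3A. Its difference of -0.73 (SE 0.51) thus lay in Wnt3A replicate 2 alone; a second probe set gave -0.82. For the M-band genes Myom1 and Myom2 the groups overlapped. Myom1 read 3.57 and 5.03 against 3.69 and 3.39, and Myom2 read 5.39 and 6.82 against 5.24 and 5.52. In these 2 genes control replicate 2 stood above 3 arrays that were alike, and the differences were -0.75 (SE 0.52) and -0.73 (SE 0.52).

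In the thin filament class, 10 of 11 tested genes were lower with Wnt3A, with a median difference of -0.84, and in 6 the groups did not overlap. Actc1, the cardiac actin that embryonic skeletal muscle also makes, read 8.77 and 9.73 on the control arrays and 8.29 and 6.97 on the Wnt3A arrays. Its difference of -1.63 (SE 0.56, 95% confidence interval -3.09 to -0.16), or 3.08-fold lower, was the widest of the 34. Acta1, the actin of adult skeletal muscle, read 9.99 and 11.27 against 9.69 and 9.59, a difference of -0.99 (SE 0.45). The Wnt3A arrays were thus alike for Acta1 and far apart for Actc1.

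Troponin is the calcium switch on the thin filament; troponin C binds calcium, troponin I inhibits and troponin T ties the complex to tropomyosin. Among the fast forms, Tnnc2 read 8.68 and 10.02 on the control arrays and 8.07 and 8.04 on the Wnt3A arrays, differing by -1.30 (SE 0.47), and Tnnt3 read 7.31 and 8.78 against 6.86 and 6.51, a difference of -1.36 (SE 0.53). Tnni2 read 6.88 and 8.16 against 6.63 and 6.73, a difference of -0.84 (SE 0.46). In all 3 fast genes both Wnt3A arrays lay below both control arrays.

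The slow and cardiac troponin forms were less uniform. Tnnt1, the slow troponin T, read 8.39 and 9.65 on the control arrays and 8.27 and 7.35 on the Wnt3A arrays, differing by -1.21 (SE 0.54), with groups apart. Tnni1, slow troponin I, read 8.49 and 10.03 against 8.22 and 8.73, a difference of -0.79 (SE 0.56). Tnnc1, slow and cardiac troponin C, read 8.92 and 10.38 against 8.61 and 9.07, a difference of -0.81 (SE 0.53). In Tnni1 and Tnnc1 Wnt3A replicate 2 lay above control replicate 1, so the groups overlapped. Tnnt2, the cardiac troponin T that is also made early in skeletal muscle, did the same, with 8.19 and 9.74 against 8.10 and 8.73. Its difference was -0.56 (SE 0.57), and it turned to 0.22 without control replicate 2. In the RefSeq annotation Tnni1 and Tnnt2 are separated by 1 protein-coding gene, as are Tnni2 and Tnnt3.

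Genes at the length and ends of the thin filament differed little or the other way. Tpm2, the β-tropomyosin gene, read 10.80 and 11.04 on the control arrays and 10.73 and 10.92 on the Wnt3A arrays, differing by -0.09 (SE 0.18, 95% confidence interval -0.57 to 0.39). It was above 0 after scaling to hybridization controls, and its other probe sets gave -0.06, -0.05 and -0.65. Tmod1, which encodes tropomodulin, the cap of the pointed end, read 5.82 and 5.72 against 6.70 and 5.58. Its difference of 0.37 (SE 0.42) lay in Wnt3A replicate 1 alone, and was -0.19 without that array.

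In the Z-disc class all 10 genes were tested, all 10 were lower with Wnt3A with a median difference of -1.03, and in 8 the groups did not overlap; the directions of Des and Myoz1 turned after scaling to hybridization controls. Of the 12 genes with an unadjusted p under 0.05, 6 belonged to this class. Ldb3, which encodes a PDZ and LIM protein that binds actinin, read 6.37 and 6.07 on the control arrays and 5.47 and 4.79 on the Wnt3A arrays. It was one of 3 tested genes with control replicate 1 above control replicate 2, beside Myh1 and Tmod1. Its difference was -1.09 (SE 0.32, 95% confidence interval -1.93 to -0.25; limma gave an adjusted p of 0.757), and its other 2 probe sets gave -0.76 and -0.61. Wnt3A was below control by similar amounts in both replicate numbers, at -0.89 and -1.28.

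The sarcomeric actinins cross-link thin filaments at the Z-disc. Actn2 read 3.65 and 4.27 on the control arrays and 3.21 and 2.79 on the Wnt3A arrays, differing by -0.96 (SE 0.30). Actn3, the fast fibre form, read 7.09 and 7.87 against 6.76 and 5.78, a difference of -1.21 (SE 0.45). Tcap, the gene of telethonin, which caps titin at the Z-disc, read 3.80 and 4.77 against 3.46 and 2.90, a difference of -1.10 (SE 0.41). The same order of the 4 arrays, with control replicate 2 highest, then control replicate 1, Wnt3A replicate 1 and Wnt3A replicate 2, held for all 3.

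Myoz2, a calsarcin that binds calcineurin at the Z-disc of slow fibres, read 4.76 and 5.74 on the control arrays and 4.32 and 3.98 on the Wnt3A arrays, differing by -1.10 (SE 0.39). Its fast fibre relative Myoz1 was close to the limit for dim genes, at 2.10 and 2.57 against 2.20 and 2.33, a difference of -0.07 (SE 0.21). Smpx, which encodes a small muscle protein, read 5.99 and 6.73 against 5.57 and 4.96, a difference of -1.09 (SE 0.37), and groups were apart.

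Csrp3, the gene of muscle LIM protein, read 5.60 and 7.19 on the control arrays and 5.50 and 5.58 on the Wnt3A arrays. Here 3 arrays were alike and control replicate 2 alone stood higher, which made the difference -0.86 (SE 0.56). Xirp1, an actin-binding protein gene of cell junctions in muscle, had the same form, with 3.05 and 3.66 against 3.04 and 2.96 and a difference of -0.36 (SE 0.26). Des, the gene of the muscle intermediate filament desmin, which myoblasts make before they differentiate, read 8.73 and 8.92 against 9.08 and 8.10. Its groups overlapped, its difference was -0.24 (SE 0.37), and it was 0.25 without Wnt3A replicate 2.

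In the enzyme class, Ckm, the muscle creatine kinase, which restores ATP from creatine phosphate, read 5.30 and 6.57 on the control arrays and 4.82 and 4.22 on the Wnt3A arrays. Its difference was -1.41 (SE 0.50, 95% confidence interval -2.73 to -0.10), or 2.66-fold lower, second in width to that of Actc1 among the 34. Mb, the oxygen store myoglobin, is not an enzyme but was placed in this class. It read 8.33 and 9.09 against 8.29 and 8.20, a difference of -0.46 (SE 0.30). Its other probe set, at a mean signal of 2.39, gave -0.00416. In Mb control replicate 1 lay close to both Wnt3A arrays. Ckmt2, the mitochondrial creatine kinase of muscle, was dim, at 1.01 to 1.91.

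**Figure D2:**
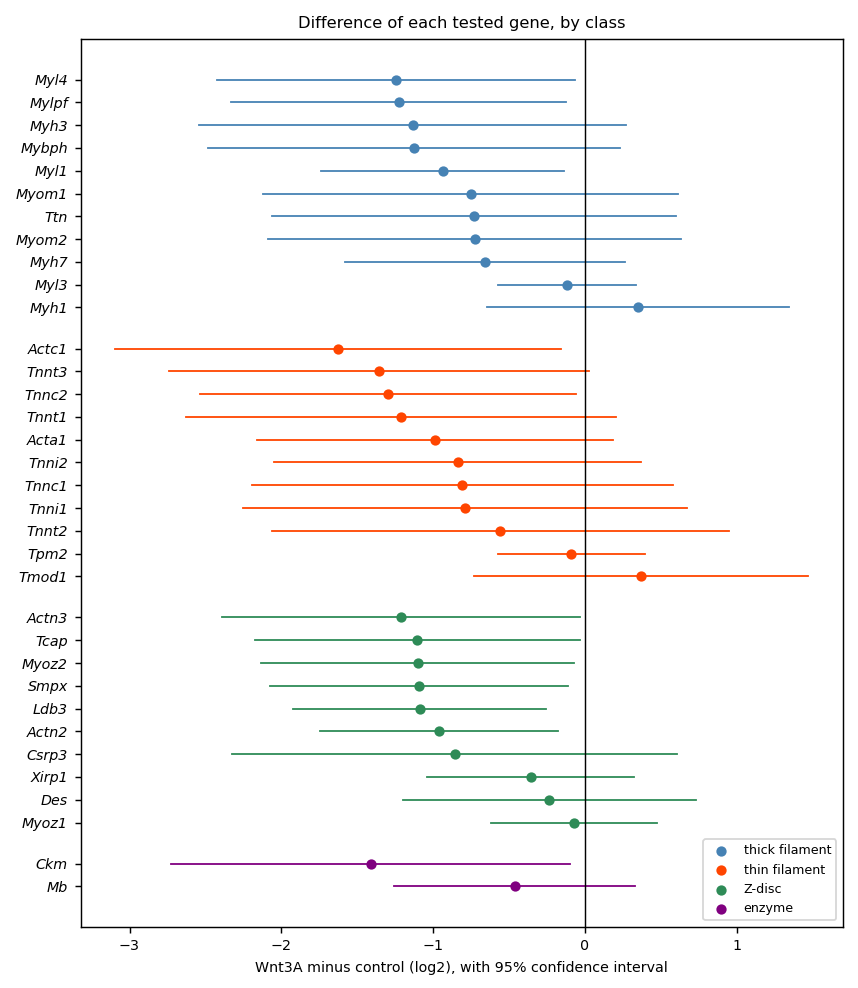
Difference of each tested gene, Wnt3A minus control (log2, horizontal axis), ordered within class; points are differences of means (2 arrays per group) and lines are 95% confidence intervals of the moderated fit. Points run from -1.63 for Actc1 to 0.37 for Tmod1, and 12 intervals lie wholly below 0.

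By isoform, the 8 tested fast genes had a median difference of -1.07 and the 7 tested slow genes one of -0.81. The groups were apart in 6 and 4 of them, all on the lower side, where 19.8% of all tested genes were. The 4 tested developmental genes, Myh3, Myl4, Actc1 and Tnnt2, had a median of -1.19, with groups apart in 3. The difference between these sets was not tested. Genes of each kind were thus lower with Wnt3A on average.

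The size of the difference was not the same in the 2 replicate numbers. Between the arrays numbered 1, Wnt3A was below control in 29 of the 34 genes, where 50.3% of all tested genes were, with a median difference of -0.25 and a range of -0.89 to 0.88. The lowest values were those of Ldb3 (-0.89), Mylpf (-0.62) and Tnnc2 (-0.61), and the highest was that of Tmod1 (0.88). None of the 34 was 2-fold lower there, where 1.47% of all tested genes were. Between the arrays numbered 2, Wnt3A was below control in 32 genes, where 53.1% of all were, with a median of -1.47 and a range of -2.76 to 0.21. In 26 of the 34 it was at least 2-fold lower, where 5.81% of all tested genes were, led by Actc1 (-2.76), Ckm (-2.35), Tnnt1 (-2.30) and Tnnt3 (-2.27). In 28 genes Wnt3A was lower in both numbers, where 30.8% of all tested genes were. Each of these values sets 1 array against 1, so there is no test, and the labels do not say that arrays of one number were handled together.

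**Figure D3:**
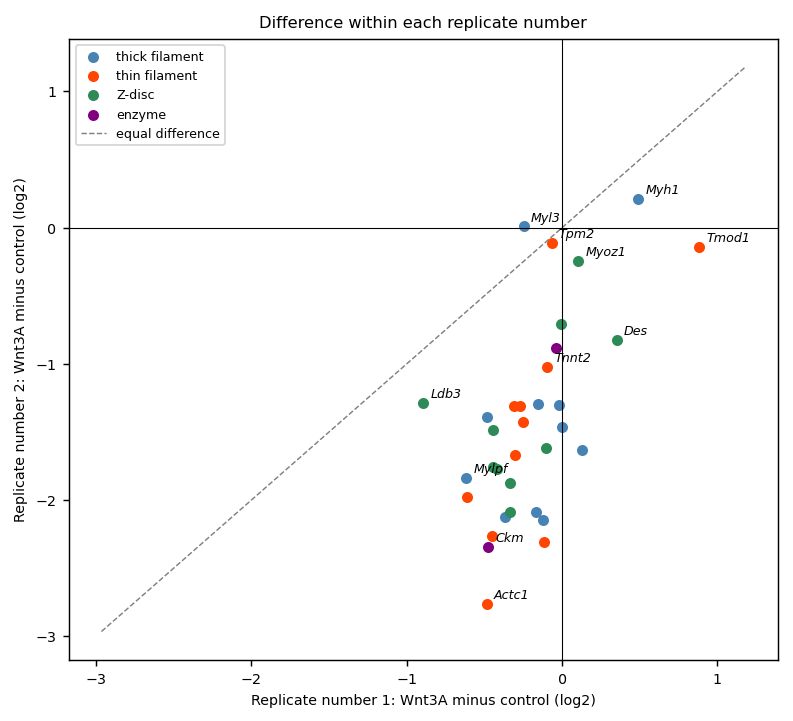
Wnt3A minus control (log2) between the arrays numbered 1 (horizontal axis) and between those numbered 2 (vertical axis) for the 34 tested genes, coloured by class; the dashed line marks equal differences. All points but that of Myl3 lie below the line, so the difference was lower between the arrays numbered 2 in 33 of the 34. Among all 9295 tested genes this held for 4936.

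The control arrays made the larger part of that gap. In 31 of the 34 genes control replicate 2 exceeded control replicate 1 (median gap 0.98), where 58.4% of all tested genes did so, and it did so at least 2-fold in 16, where 3.29% of all tested genes were. These 16 were spread unevenly: 8 of 11 thin filament genes, 6 of 11 thick filament genes, 1 of 10 Z-disc genes (Csrp3) and 1 of 2 in the enzyme class (Ckm). Of the 7 markers of cycling cells 5 were also higher on control replicate 2 than on control replicate 1. Mki67 (2.34), Top2a (1.63) and Ccna2 (1.55) were more than 2-fold higher. Between the Wnt3A arrays only 1 of the 7 was lower on replicate 2, with a median gap of 0.55, the other way from the contractile genes. The part of cycling cells in these gaps was not tested. Wnt3A replicate 2 was below Wnt3A replicate 1 in 25 of the 34 genes, where 4375 of all 9295 tested genes were. The median of this gap was -0.34 over the 34 and 0.03 over all tested genes. The class medians of this second gap were -0.56 for the thick filament and -0.02 for the thin filament. They were -0.49 for the Z-disc and -0.35 for the enzyme class. Without control replicate 2 the median difference was -0.39 over the 34 and -0.20 for the thin filament, and without control replicate 1 it was -1.48 and -1.56.

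The side on which the Wnt3A arrays lay depended less on the choice of control array. Both Wnt3A arrays lay below control replicate 1 in 23 of the 34 genes, where 31.5% of all tested genes did so; this count leaves control replicate 2 out. Measured from control replicate 1, 2 genes, Actc1 and Ldb3, were at least 2-fold above the Wnt3A mean with both Wnt3A arrays below, where 2.46% of all tested genes met this. Most genes thus had the same direction against either control array, and a 2-fold size rested on control replicate 2. Both comparisons use the same 2 Wnt3A arrays. The control arrays differed from each other as one-sidedly, in 31 of the 34 genes with a median gap of 0.98. Wnt3A minus control was below 0 in 32, with a median of -0.90. Genes read on the same arrays are not replicates of the treatment.

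**Figure D4:**
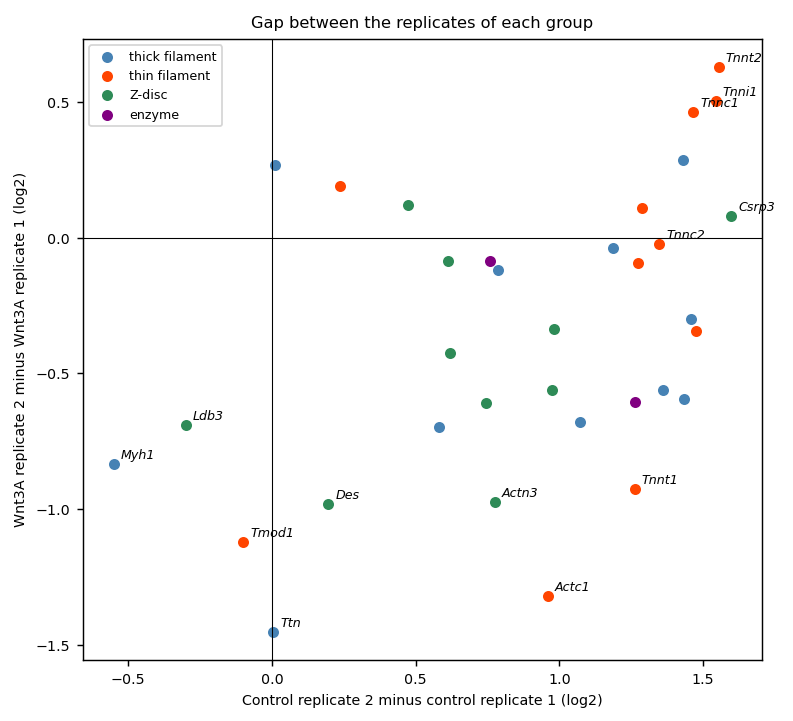
Gap between the replicates of a group for the 34 tested genes: control replicate 2 minus 1 (log2, horizontal axis) and Wnt3A replicate 2 minus 1 (vertical axis), coloured by class. Most points lie right of 0; Tnni1, Tnnc1 and Tnnt2 stand at the upper right, higher on both arrays numbered 2, while Ttn, Tmod1 and Des have their gap mainly in Wnt3A.

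A single order of the 4 arrays recurred. In 20 of the 34 genes control replicate 2 was highest, followed by control replicate 1, Wnt3A replicate 1 and Wnt3A replicate 2, where 7.86% of all tested genes had this order. It held in 7 thick filament, 5 thin filament and 6 Z-disc genes and in both tested genes of the enzyme class. This order was picked out after the values were seen, and replicate numbers have no rank of their own.

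Regulators of the programme were read from a list of 13, of which 11 were on the table and 10 were tested; 0 passed in limma. Of the 10, 7 were below 0, against 53.0% of all tested genes, and the median difference was -0.43. In 5 the groups were apart on the lower and in 1 on the higher side, against 19.8% and 14.7% of all. Between the arrays numbered 1 there were 6 of 10 lower, against 50.3% of all tested genes, with a median of -0.07. Myog, which drives terminal differentiation, had that same order, with 8.00 and 9.27 on the control arrays and 7.42 and 6.66 on the Wnt3A arrays, differing by -1.59 (SE 0.51, adjusted p = 0.809). So did Myod1, the determination factor MyoD, with 6.84 and 7.11 against 6.32 and 3.62 and a difference of -2.00 (SE 0.91). Smyd1, a methyltransferase gene needed for sarcomere assembly, read 3.57 and 4.58 against 3.51 and 2.71, also in that order, a difference of -0.96 (SE 0.46). Myf5, the determination factor of early myoblasts, went the other way, with 6.57 and 5.98 against 7.77 and 7.65, a difference of 1.43 (SE 0.27, adjusted p = 0.488). Mef2c overlapped between groups, at 5.50 and 6.03 against 6.00 and 4.90, a difference of -0.32 (SE 0.45). The MEF2 genes Mef2a and Mef2d differed by 0.14 (SE 0.25) and 0.14 (SE 0.21), and Srf, the gene of serum response factor, by -0.18 (SE 0.20).

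**Figure D5:**
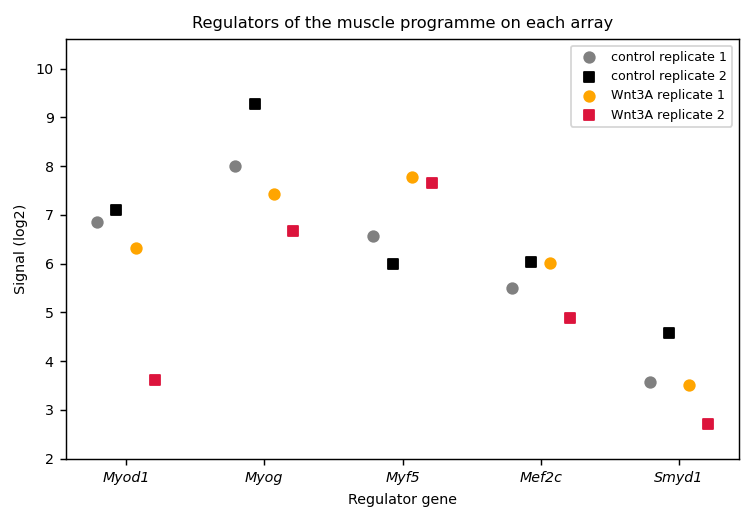
Signal (log2, vertical axis) of 5 regulator genes on each array; circles are replicate 1, squares replicate 2, grey and black control, orange and red Wnt3A. Myog runs from 9.27 in control replicate 2 down to 6.66 in Wnt3A replicate 2, and for Myf5 both Wnt3A arrays, at 7.77 and 7.65, stand above both controls.

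Other genes of differentiated muscle, for calcium handling, excitation and metabolism, were read from a list of 24, of which 21 were on the table and tested; 0 passed in limma. The difference was below 0 for 19 of the 21, against 53.0% of all tested genes, and in 9 both Wnt3A arrays lay below both control arrays, against 19.8%. The median difference was -0.58. Between the arrays numbered 1 there were 13 of 21 lower, against 50.3% of all, with a median of -0.12, and between those numbered 2 the median was -1.02. The genes named here are those of lowest p in the list. Trdn, the gene of triadin of the calcium release complex, differed by -1.22 (SE 0.40), Atp2a1, the fast calcium pump, by -1.26 (SE 0.50), Casq2, a calcium-binding protein gene, by -0.87 (SE 0.37) and Pgam2, a muscle glycolytic enzyme gene, by -0.74 (SE 0.29). In this list too control replicate 2 exceeded control replicate 1 in 19 of 21 genes, against 58.4% of all tested genes, with a median gap of 0.83.

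Relatives of the contractile genes that are made in non-muscle or smooth muscle cells served as a contrast. Some of them, such as Tpm1, are also made in striated muscle. Of 21 listed, 20 were on the table and 18 were tested. The difference was below 0 for 12 of the 18, against 53.0% of all tested genes. Groups were apart on the lower side in 3 of the 18 genes and on the higher side in 3, against 19.8% and 14.7%. Their median difference was -0.27; it was 0.04 between the arrays numbered 1 and -0.32 between those numbered 2, and the control arrays differed by a median of 0.14. Vim, the gene of the intermediate filament vimentin, differed by 0.31 (SE 0.16), and Tmod3, the tropomodulin of other tissues, by 0.67 (SE 0.25). Tpm1, a tropomyosin gene, differed by -0.43 (SE 0.22) and Myl9, a smooth muscle light chain gene, by -0.89 (SE 0.50), with Myl9 at 8.37 and 8.29 on the control arrays and 8.16 and 6.73 on the Wnt3A arrays. None of the 18 passed in limma, with 1, Tmod3, at an unadjusted p under 0.05.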

How the data were processed

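The authors deposited 1 log2 signal per probe set for each of 4 Affymetrix arrays; per the submitters' processing notes the tools were GCOS and PLIER, with no version or role stated. The log base was read from the values (0.50 to 13.23), and another base would rescale all differences; for normalization, filters and build, nothing was given in the sources used here. Column medians were 4.19, 4.20, 4.22 and 4.15 (control 1 and 2, Wnt3A 1 and 2), so nothing was normalized again. No detection calls were used.

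Of 22690 probe sets, the 64 array controls were set aside, 20380 had 1 gene symbol in the platform annotation (20351 matched by Entrez ID to RefSeq, GRCm38.p6), 691 had several and 1555 were unlisted. The brightest probe set stood for a gene; the dimmest 25% of 12393 genes, under 2.18, were left out. Among the 44, 9 genes had several probe sets above that limit, and in 2 of them (Myl4, Des) these differed in sign. Protocol text naming Wnt3A is the same for all samples, so groups come from the titles, which match the treatment field.

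The contrast was fitted in R 4.3.3 with limma 3.58.1 (lmFit, eBayes with intensity trend, two-sided, group as only term, all 4 arrays), with Benjamini-Hochberg adjustment over all 9295 tested genes; intervals have 4.68 degrees of freedom. The fit was tested on simulated data. Alternatives were the replicate block, 3 scalings, 2 filters, the mean of probe sets, no trend and leaving out each array. The genes, classes and lists were chosen with earlier results of these data known. Named genes were all 44, and from each comparison list the 4 tested genes of lowest p, plus Myod1, Myog, Myf5 and Mef2c. Mef2a, Mef2d, Srf and the cell type markers were named outside this rule. The number of arrays limits the precision.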

Additional observations from a re-analysis of the deposited data

How the results depend on the processing

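None of the 34 tested contractile and enzyme genes passed in limma under any of the 12 alternatives. Over all genes, 83 passed with the replicate number as a block, 30 after scaling to hybridization controls and 1 with the dimmer 50% left out, against 0 otherwise. The samples share only a number: over all tested genes the deviations of same-numbered arrays from their group means correlated at 0.48. With the block the lowest adjusted p in limma of the 34 was 0.135 (Ldb3), and this lowest value ran from 0.135 to 0.9996 over the alternatives. Scaling to hybridization controls moved the median of all tested genes from -0.02 to 0.30; the median of the 34 was then -0.58 with 28 below 0, and the differences of Myl3 (0.20), Tpm2 (0.23), Myoz1 (0.25) and Des (0.0865) turned. Leaving out 1 array gave medians from -1.48 to -0.39 over the 34. They ran from -1.44 to -0.42 in the thick filament and from -1.56 to -0.20 in the thin filament. For the Z-disc they ran from -1.37 to -0.62 and for the enzyme class from -1.44 to -0.43. The extremes were without control replicate 1 and without control replicate 2. The single genes that turned ranged, with 1 array left out, from -0.0665 to 0.77 for Myh1, -0.25 to 0.0141 for Myl3, -1.33 to 0.22 for Tnnt2, -0.21 to 0.0279 for Tpm2, -0.19 to 0.93 for Tmod1, -0.31 to 0.16 for Myoz1 and -0.73 to 0.25 for Des. Myh1, Myl3, Tpm2 and Tmod1 turned without Wnt3A replicate 1, Tnnt2, Tpm2 and Myoz1 without control replicate 2, and Des without Wnt3A replicate 2. Counts with groups apart were 23 to 30 with 1 array left out, an alternative chosen after the data were seen. Leaving out an array can only keep this count or raise it, so it is no check on the 23 of the main setting. The cause of these changes was not tested. Signals near background limit Myl3, Myoz1 and the 6 dim genes.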
